A study of Mus musculus with 2 samples.

Results

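The enzymes described here are Aldh1l1 and 5 others that move single carbon units on folate: Mthfd1, Mthfd2, Mthfd1l, Shmt1 and Shmt2. These 6 genes were listed by name, out of 32285 features, and the set was chosen by the splenectomy-over-sham ratio of Aldh1l1 in monocytes and macrophages of these same libraries. That ratio is therefore given as a description. The 5 others ask whether Aldh1l1 moved alone or with its pathway. The splenectomy library came from wild-type male C57BL/6J mice that had lost their spleen, and the sham library from mice of the same strain, sex and age that had sham surgery. All animals were 8 weeks old and had the left anterior descending (LAD) artery of the heart closed for 60 min before 24 h of reperfusion, so neither library is from an uninjured heart. Leukocytes were taken from the heart on magnetic beads by their surface protein CD45 and sequenced from the 3′ end of their transcripts. Each group has 1 library and how many animals it holds was not stated in the sources used here, so no test between the groups was possible. Every difference below describes these 2 libraries.

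Folate carries carbon units between serine, purines, thymidylate and methionine, in parallel sets of reactions in the cytosol and in mitochondria. Serine hydroxymethyltransferases (Shmt1 in the cytosol, Shmt2 in mitochondria) load the carbon from serine. Mthfd2 and Mthfd1l oxidise it in mitochondria and release it as formate, and Mthfd1 puts formate back on folate in the cytosol for purine and thymidylate synthesis. Aldh1l1 oxidises the formyl group of formyl-tetrahydrofolate to carbon dioxide, which frees the folate and takes the carbon out of the pathway. Aldh1l1 is best known as an enzyme of liver and as a marker of astrocytes, while Mthfd2 is known for its rise in dividing and activated immune cells.

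The promoters of Aldh1l1 and Mthfd2 are shown because they stand for the gene that differed and for the member with the most UMIs among those that did not. Both genes lie on chromosome 6. Aldh1l1 (ENSMUSG00000030088) spans chr6:90486427-90600203 on the plus strand and Mthfd2 (ENSMUSG00000005667) spans chr6:83305691-83325908 on the minus strand of mm10 in GENCODE vM21. The 250 bases before each RefSeq start (GRCm38.p6; chr6:90550543-90550792, plus strand, and chr6:83317605-83317854, minus strand) are written 5′ to 3′, with the CCAAT box core, a motif found in many promoters, in capitals on either strand. Both RefSeq starts lie inside the longer GENCODE spans.
Aldh1l1 promoter: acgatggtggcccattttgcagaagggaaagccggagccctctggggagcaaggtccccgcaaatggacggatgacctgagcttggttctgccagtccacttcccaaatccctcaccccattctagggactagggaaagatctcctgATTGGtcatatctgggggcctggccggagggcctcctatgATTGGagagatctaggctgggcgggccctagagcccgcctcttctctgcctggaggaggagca
Mthfd2 promoter: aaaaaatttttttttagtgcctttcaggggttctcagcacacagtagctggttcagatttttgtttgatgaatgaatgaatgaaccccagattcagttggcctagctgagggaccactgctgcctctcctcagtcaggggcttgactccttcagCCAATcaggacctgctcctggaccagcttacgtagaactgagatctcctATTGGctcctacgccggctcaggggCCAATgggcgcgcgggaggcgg
The Aldh1l1 window held 2 CCAAT cores and the Mthfd2 window 3, and the windows of Mthfd1 and Shmt1 held 1 each. CCAAT was in 33.8% of 32851 promoter windows of this length. The other motifs searched on both strands, which did not overlap these cores, were 2 copies of GAAA with 2 bases between them, the core of the interferon response element (2.98% of windows), TGATGNAA, a core bound by ATF4 with C/EBP partners (3.45%), and TTTNGCGC, an E2F core (1.13%). None of these 3 was in the window of any of the 6 members, which says only that these letters are not in these 250 bases.

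The other members lie on other chromosomes. Mthfd1 (ENSMUSG00000021048) spans chr12:76255298-76319803 on the plus strand, and Mthfd1l (ENSMUSG00000040675) spans chr10:3973118-4167081 on the plus strand. Shmt1 (ENSMUSG00000020534, chr11:60788104-60811718, minus strand) overlaps Smcr8 on the plus strand, and Shmt2 (ENSMUSG00000025403, chr10:127517123-127522444, minus strand) overlaps Ndufa4l2 on the plus strand. Smcr8 had 656 UMIs in the splenectomy library and 728 UMIs in the sham library, and Ndufa4l2 had 101 UMIs in the splenectomy library and 59 UMIs in the sham library. The sources used here do not say whether the counting used strand, so the values of Shmt1 and Shmt2 are uncertain to that extent.

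A UMI (unique molecular identifier) marks 1 captured RNA molecule. The splenectomy library held 48024013 UMIs on 5087 barcodes and the sham library 53512625 UMIs on 6210 barcodes. The filters kept 4805 cells at a median of 7219 UMIs in the splenectomy library and 5838 cells at a median of 4988 UMIs in the sham library. The 2 libraries shared 9 barcode sequences. Ptprc, the gene of CD45, had a UMI in 79.4% of kept splenectomy cells and 79.7% of kept sham cells. Each cell was put in a class by its UMIs of fixed marker genes, none of which is a member. The large classes were monocytes (1481 splenectomy cells, 1418 sham cells), macrophages (697 and 887) and neutrophils (1566 and 2243). Each was led by its own markers, such as Vcan and Ccr2, C1qa and C1qc, and Cxcr2 and S100a9. These markers set the classes, so their lead does not test the class names. B cells (105 and 102), T cells (65 and 54) and endothelial cells (66 and 73) were the other classes with at least 50 cells in both libraries. A further 694 splenectomy cells and 916 sham cells stayed unassigned. Levels are in CPM, the UMIs of a gene scaled to a class total of 1000000 UMIs, and intervals are exact 95% intervals that cover counting error only.

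Aldh1l1 was lower in the splenectomy library in all 3 large classes. In the monocyte class it had 70 UMIs in the splenectomy library and 374 UMIs in the sham library, which is 3.45 CPM (2.69 to 4.36) after splenectomy and 19.5 CPM (17.6 to 21.6) after sham surgery. The log2 ratio of splenectomy over sham was -2.50 (-2.89 to -2.13), so the sham level was 5.66 times the splenectomy level. In the macrophage class Aldh1l1 had 39 UMIs in the splenectomy library and 194 UMIs in the sham library, at 3.91 CPM (2.78 to 5.34) and 15.9 CPM (13.7 to 18.3), with a log2 ratio of -2.02 (-2.56 to -1.52). The neutrophil class shared the direction. Its 12 UMIs after splenectomy and 139 UMIs after sham surgery gave 1.91 CPM (0.988 to 3.34) and 17.3 CPM (14.6 to 20.5), with a log2 ratio of -3.18 (-4.17 to -2.33). The intervals of the libraries did not overlap in any of these classes. Among all genes with at least 50 UMIs in the library with more, Aldh1l1 ranked 7 from the lowest of 9082 ratios in monocytes, 7 of 8772 in macrophages and 2 of 6081 in neutrophils. The set was chosen by the monocyte and macrophage ratios, so the ranks in those classes follow from the choice and support nothing.

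**Figure D1:**
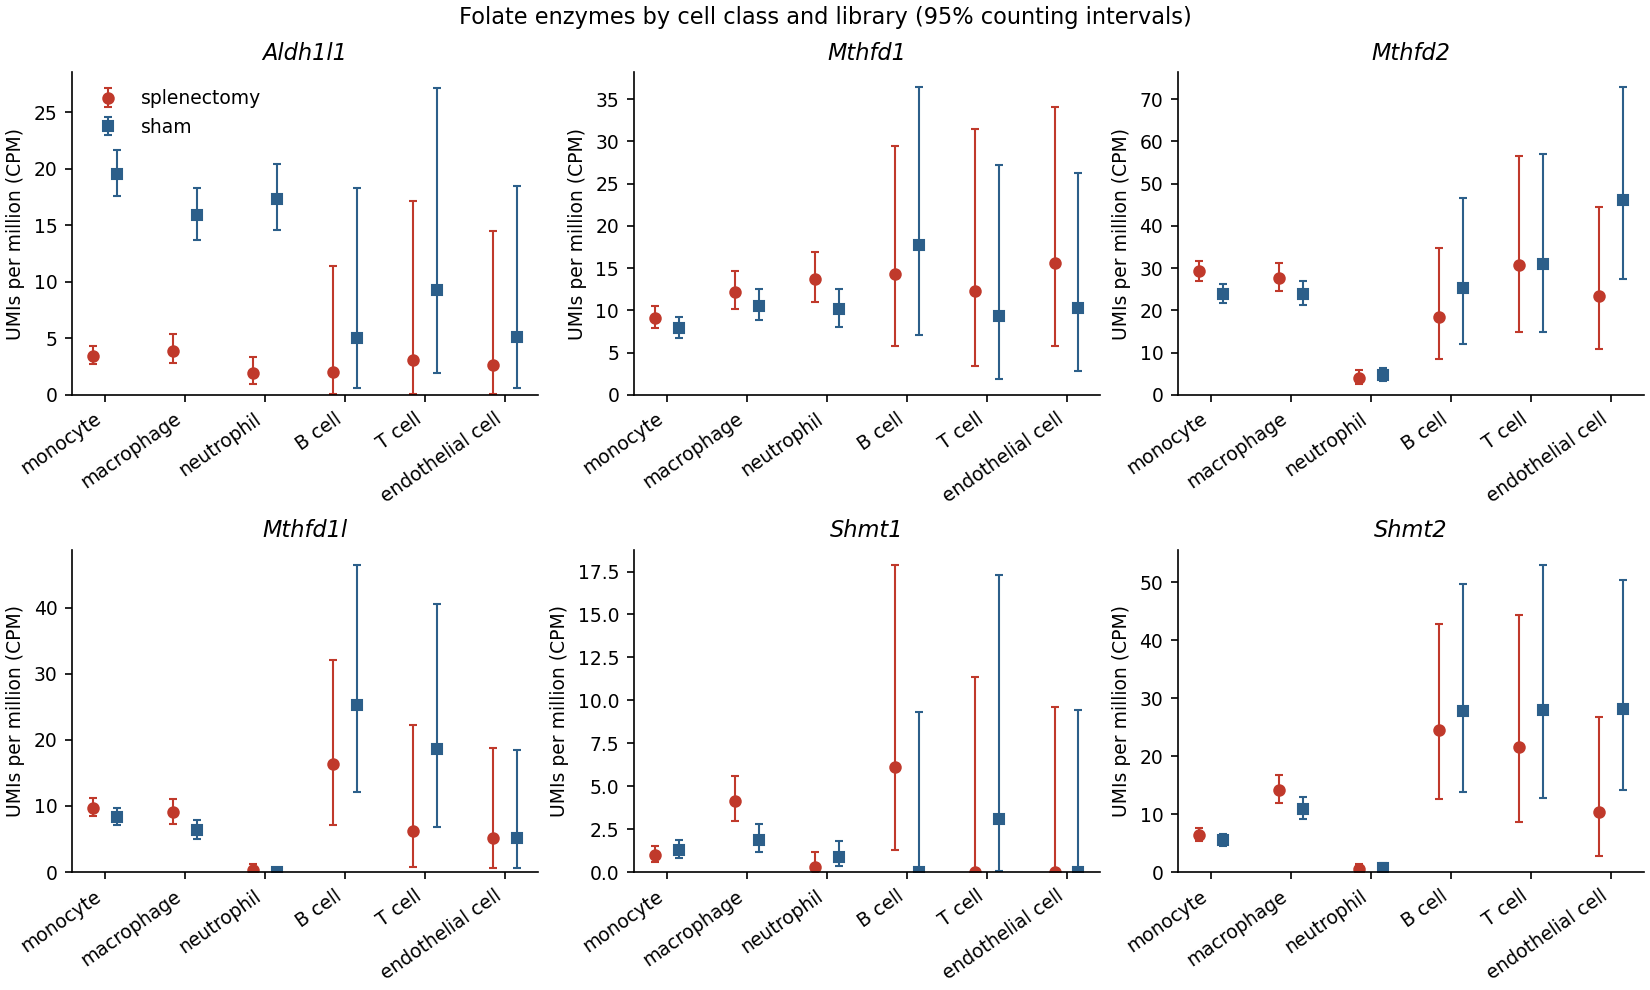
Levels in CPM of each of the 6 folate enzymes in 6 cell classes, with the splenectomy library as red circles left of the sham library as blue squares and bars for exact 95% counting intervals. Aldh1l1 lies between 1.91 and 3.91 CPM after splenectomy and between 15.9 and 19.5 CPM after sham surgery in the 3 large classes, while the intervals of Mthfd1, Mthfd2, Mthfd1l and Shmt2 lie close together or overlap there.

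The smaller classes held too few UMIs of Aldh1l1 to place. B cells had 1 UMI in the splenectomy library and 2 UMIs in the sham library, endothelial cells also 1 and 2, and T cells and natural killer cells 1 and 3 each. Nonclassical monocytes had 1 UMI in 33 splenectomy cells and 7 UMIs in 41 sham cells, and conventional dendritic cells had 3 UMIs in 37 splenectomy cells and 7 UMIs in 27 sham cells, with intervals of the ratio that span 0 on the log2 scale. Unassigned cells had 22 UMIs in the splenectomy library and 117 UMIs in the sham library, at 3.82 CPM and 15.8 CPM, a log2 ratio of -2.05 (-2.78 to -1.38). Over all kept cells Aldh1l1 stood at 3.37 CPM after splenectomy and 17.3 CPM after sham surgery. Among the large classes the order of the sham level was monocytes, neutrophils and macrophages, with overlapping intervals. After splenectomy the order was macrophages, monocytes and neutrophils, again with overlapping intervals.

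The difference lay in how many cells held an Aldh1l1 UMI as well as in UMIs per cell. In the monocyte class 64 of 1481 splenectomy cells (4.32%) and 309 of 1418 sham cells (21.8%) had at least 1 UMI, at median depths of 13056 and 13071.5 UMIs. No splenectomy monocyte had more than 2 UMIs, whereas 10 sham monocytes had 3 or 4. In the macrophage class 5.16% of splenectomy cells and 18.8% of sham cells had a UMI. In the neutrophil class 12 of 1566 splenectomy cells and 131 of 2243 sham cells did, and the highest count in a cell was 1 after splenectomy and 2 after sham surgery. With each cell thinned to 4000 UMIs and shallower cells left out (90 splenectomy and 108 sham monocytes, 80 and 112 macrophages), Aldh1l1 was found in 0.719% of splenectomy monocytes (0.345 to 1.32) and 7.71% of sham monocytes (6.32 to 9.29). These shares come from a single random draw. Its monocyte log2 ratio, -3.48 from 10 splenectomy and 105 sham UMIs, lay beyond the interval of the full counts. Thinned macrophages gave 1.297% (0.561 to 2.54) after splenectomy and 6.58% (4.94 to 8.56) after sham surgery. At 2000 UMIs, the depth that neutrophils allow, with 110 splenectomy and 216 sham cells left out, 0.412% of splenectomy neutrophils (0.151 to 0.895) and 3.26% of sham neutrophils (2.53 to 4.12) had a UMI. B cells, taken as the background class for free RNA, gave 1.02% (1 of 98 splenectomy cells, 0.0258 to 5.55) and 1.06% (1 of 94 sham cells, 0.0269 to 5.79) at that depth. At the same depth monocytes were at 0.556% and macrophages at 0.761% after splenectomy. Each B cell value rests on 1 cell, and at 4000 UMIs 0 of 38 splenectomy and 0 of 30 sham B cells had a UMI. The B cells therefore cannot place the splenectomy shares above or at a background of free RNA. Whether B cells serve as such a background was not tested. Sham monocytes (4.69%) and sham macrophages (3.52%) stood above the sham B cell value, with the wide B cell interval reaching over them.

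The difference was present at every depth. When the cells of a class were divided into 4 bins by their total UMIs, with the same limits for both libraries, Aldh1l1 was lower in the splenectomy library in all 4 bins of each class. The log2 ratios ran from -2.89 to -2.20 over the monocyte bins, from -2.67 to -1.48 over the macrophage bins and from -4.35 to -2.52 over the neutrophil bins. The upper bound of the interval was below 0 in every bin, and nearest to it in the shallowest macrophages at -0.16, where 3 splenectomy UMIs stood against 15 sham UMIs.

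Aldh1l1 was also lower in every cluster that held enough of its UMIs. Of 20 clusters of both libraries together, 11 had at least 20 Aldh1l1 UMIs in 1 library, and in all 11 the level was lower after splenectomy. In 10 of them the log2 ratio lay between -3.70 and -2.10, and in these 10 the whole interval lay below a 2-fold difference. In the other one, neutrophils led by Ifit3b, Ifit2 and Ifit1, Aldh1l1 had 0 UMIs in 67 splenectomy cells and 24 UMIs in 341 sham cells. Most of the 11 reached 20 UMIs only in the sham library, so the rule favours clusters that are lower after splenectomy. Many also hold the monocytes and macrophages by which the set was chosen, so this count supports nothing. Under the limit most clusters were lower too, on few UMIs, but not all. The cluster led by Mt1, Mrpl12 and Pf4 had 2 UMIs (4.60 CPM) after splenectomy and 1 UMI (2.19 CPM) after sham surgery. The highest sham level, 33.4 CPM, was in the cluster led by Ace, Adgre4 and Ear2, genes of nonclassical monocytes, against 4.55 CPM in its splenectomy cells. Next came the cluster led by Dmkn, Mgst1 and Nrg1, which also holds the monocyte marker Ly6c2, with 5.70 CPM after splenectomy and 27.8 CPM after sham surgery. These clusters were held unequally by the libraries. Of monocyte-class cells, 490 in the splenectomy library and 206 in the sham library fell in the cluster led by Il6, Ccl24 and Serpinb2, and 331 and 472 in the cluster led by Fcgr1, Ms4a4c and Nt5dc2. Of neutrophil-class cells, 740 splenectomy cells and 327 sham cells were in the cluster led by Retnlg, Cd177 and Wfdc21. Within these 3 clusters taken alone the Aldh1l1 log2 ratios were -2.37 (-2.98 to -1.79), -2.10 (-2.84 to -1.42) and -2.64 (-3.94 to -1.48).

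**Figure D2:**
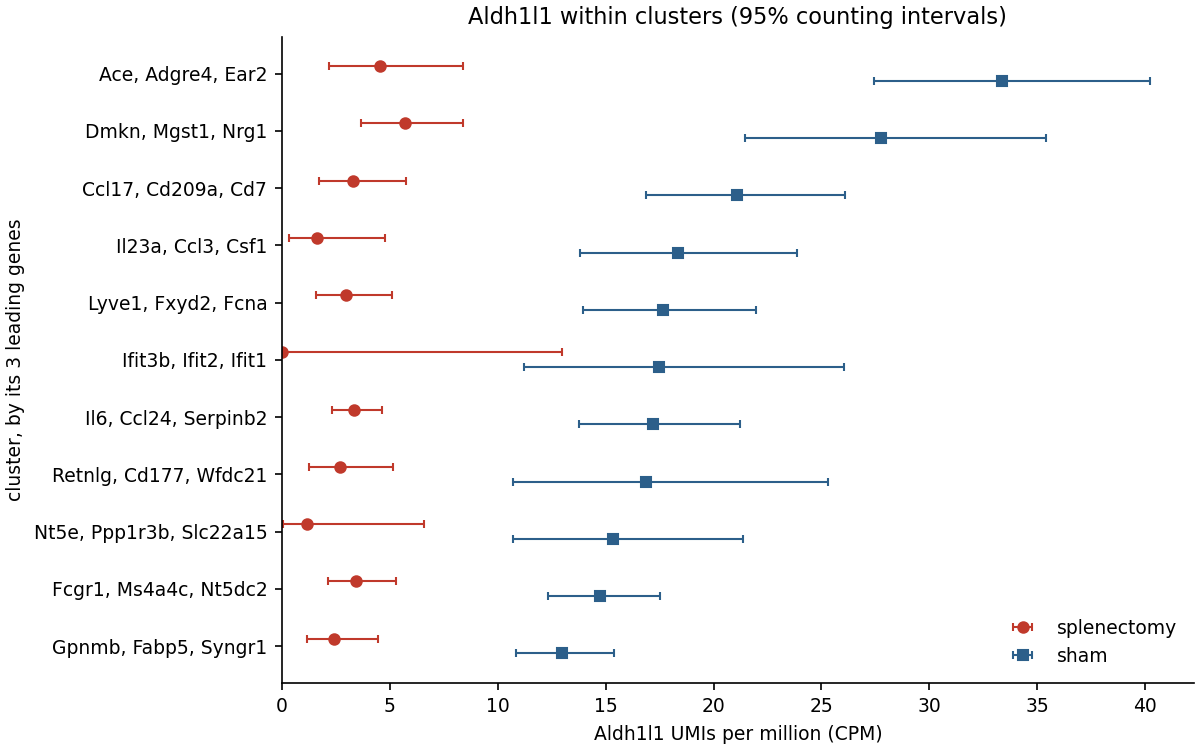
Aldh1l1 in CPM in each of the 11 clusters with at least 20 of its UMIs in 1 library, with the splenectomy library as red circles above the sham library as blue squares, bars for exact 95% counting intervals, and clusters named by their 3 leading genes. Splenectomy cells lie between 0 and 5.70 CPM and sham cells between 12.97 and 33.4 CPM.

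The other enzymes did not share this difference. A member was counted as apart at 2-fold with at least 50 UMIs in the library with more. In monocytes 1 of the 5 members that met this minimum was apart, and in macrophages 1 of 5, in both cases Aldh1l1. Of all genes that met it, 1.77% were apart in monocytes and 1.68% in macrophages. In neutrophils 2 members met the minimum and 1 was apart, again Aldh1l1, beside 2.14% of all genes. The 4 other members measured in monocytes and macrophages all had log2 ratios above 0. The median over the 5 measured members was 0.23 in monocytes and 0.21 in macrophages, beside medians of -0.0014 and -0.0055 over all genes.

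Mthfd1, the cytosolic enzyme that rebuilds formyl-tetrahydrofolate, the substrate of Aldh1l1, had intervals that included 0 in each large class. It had 185 UMIs in splenectomy monocytes and 151 UMIs in sham monocytes, at 9.12 CPM and 7.89 CPM, with a log2 ratio of 0.21 (-0.11 to 0.53). A single splenectomy monocyte held 16 of these UMIs. In macrophages Mthfd1 had 122 UMIs at 12.2 CPM after splenectomy and 129 UMIs at 10.6 CPM after sham surgery, a log2 ratio of 0.21 (-0.16 to 0.58). In neutrophils its 86 UMIs after splenectomy and 81 UMIs after sham surgery gave 13.7 CPM and 10.1 CPM and a log2 ratio of 0.44 (-0.01 to 0.90). The interval lay just above 0 under other settings, from 0.03 to 0.71 in macrophages taken as joint clusters, from 0.02 to 0.71 in macrophages with no doublets removed, and from 0.06 to 0.97 in neutrophils scaled by the median gene ratio. As computed above, none of the 3 intervals reached down to the interval of Aldh1l1 in the same class. In neutrophils Mthfd1 was the only member besides Aldh1l1 with 50 UMIs.

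Mthfd2, the mitochondrial dehydrogenase and cyclohydrolase, was slightly higher after splenectomy in monocytes. It had 594 UMIs at 29.3 CPM in splenectomy monocytes and 458 UMIs at 23.9 CPM in sham monocytes, a log2 ratio of 0.29 (0.11 to 0.47). In macrophages 277 UMIs at 27.8 CPM after splenectomy and 293 UMIs at 24.0 CPM after sham surgery gave 0.21 (-0.03 to 0.45). The gene was scarce in neutrophils of both libraries, with 25 UMIs at 3.98 CPM after splenectomy and 37 UMIs at 4.61 CPM after sham surgery. It was high in conventional dendritic cells, at 75.2 CPM (39 UMIs in 37 splenectomy cells) and 49.4 CPM (24 UMIs in 27 sham cells), whose ratio had an interval from -0.16 to 1.40. The dendritic interval lay above those of monocytes and macrophages in both libraries.

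Mthfd1l, the mitochondrial synthetase that releases formate, had 198 UMIs at 9.76 CPM in splenectomy monocytes and 159 UMIs at 8.31 CPM in sham monocytes, a log2 ratio of 0.23 (-0.08 to 0.54). In macrophages it had 90 UMIs at 9.02 CPM after splenectomy and 77 UMIs at 6.30 CPM after sham surgery, a log2 ratio of 0.52 (0.06 to 0.98). This was the highest ratio of a member with 50 UMIs. With macrophages taken as joint clusters the Mthfd1l ratio was 0.14, with an interval that included 0 (-0.31 to 0.57). Neutrophils all but lacked Mthfd1l, with 2 UMIs in 1566 splenectomy cells and 0 UMIs in 2243 sham cells. Over those sham cells a count of 0 allows up to 3 UMIs.

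Shmt2, the mitochondrial serine hydroxymethyltransferase, had 131 UMIs at 6.46 CPM in splenectomy monocytes and 105 UMIs at 5.49 CPM in sham monocytes, a log2 ratio of 0.24 (-0.15 to 0.62). Macrophages had 141 UMIs at 14.1 CPM after splenectomy and 133 UMIs at 10.9 CPM after sham surgery, a log2 ratio of 0.38 (0.02 to 0.73). Their intervals lay above those of monocytes in both libraries. Neutrophils had 3 UMIs of Shmt2 after splenectomy and 6 UMIs after sham surgery, and B cells 12 UMIs at 24.5 CPM and 11 UMIs at 27.8 CPM.

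Shmt1, its cytosolic counterpart, was the member with the fewest UMIs. It had 20 UMIs in splenectomy monocytes and 24 UMIs in sham monocytes, with a log2 ratio of -0.35 (-1.28 to 0.57). In macrophages its 41 UMIs at 4.11 CPM after splenectomy and 23 UMIs at 1.88 CPM after sham surgery gave a log2 ratio of 1.13 (0.36 to 1.93). The macrophage value was above 2-fold but under the minimum of 50 UMIs. Neutrophils had 2 UMIs after splenectomy and 7 UMIs after sham surgery.

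**Figure D3:**
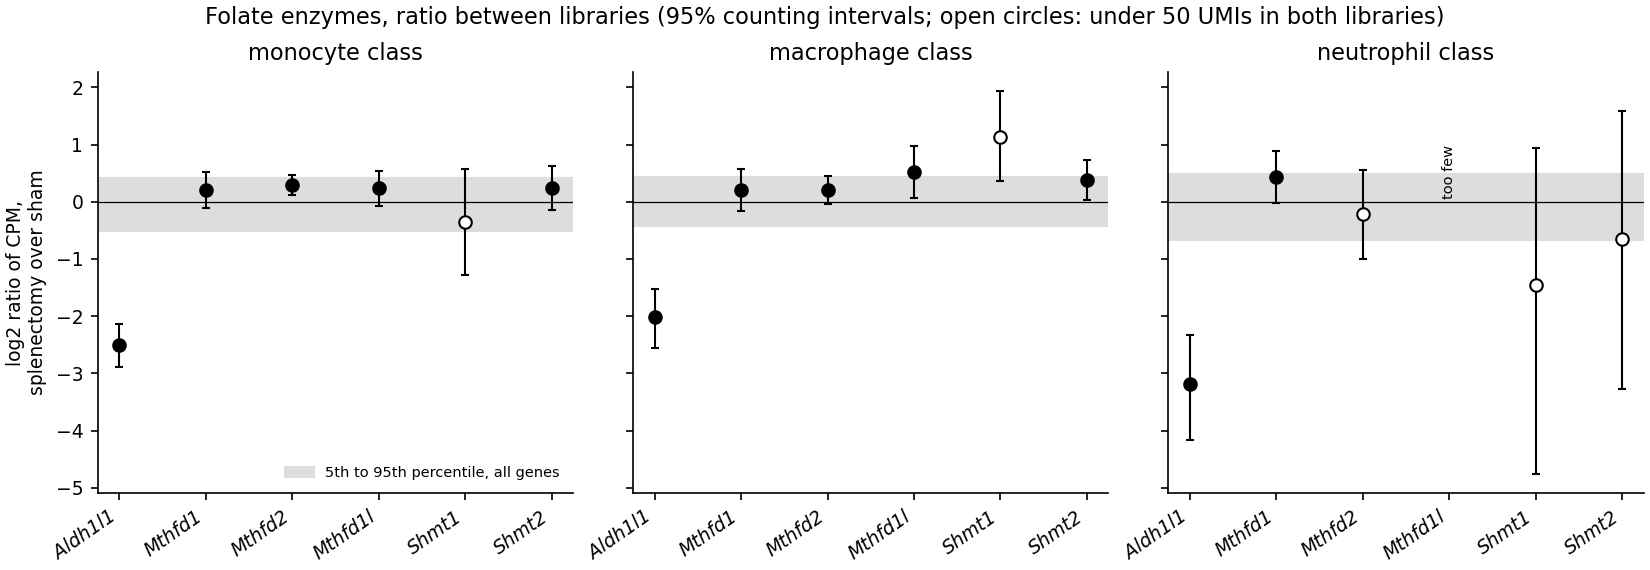
Log2 ratio of CPM, splenectomy over sham, of each member in the monocyte, macrophage and neutrophil classes, with exact 95% counting intervals, open circles for members under 50 UMIs in both libraries and a grey band from the 5th to the 95th percentile of all genes with 50 UMIs. Aldh1l1 lies at -2.50, -2.02 and -3.18, far under the band, and the other filled circles lie between 0.21 and 0.52.

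Inside single clusters Aldh1l1 was lower after splenectomy, and some of the other members were higher. In the cluster led by Il6, Ccl24 and Serpinb2, where the Aldh1l1 log2 ratio was -2.37, Mthfd1 was at 0.03 (-0.48 to 0.57), Mthfd2 at 0.26 (-0.06 to 0.59), Mthfd1l at 0.02 (-0.44 to 0.48) and Shmt2 at -0.15 (-0.73 to 0.45). In the cluster led by Gpnmb, Fabp5 and Syngr1, macrophages with 10 Aldh1l1 UMIs after splenectomy and 129 UMIs after sham surgery, Aldh1l1 was at -2.42 (-3.51 to -1.49) and Mthfd2 at -0.11 (-0.49 to 0.26). In the cluster led by Lyve1, Fxyd2 and Fcna, Aldh1l1 was at -2.56 (-3.53 to -1.71) and the 5 others were above 0, with intervals clear of 0 for Mthfd1l at 0.91 (0.01 to 1.85) and Shmt2 at 0.72 (0.18 to 1.27). In the cluster led by Dmkn, Mgst1 and Nrg1 the Aldh1l1 log2 ratio was -2.29 (-3.01 to -1.60), while Mthfd1l was at 2.22 (0.74 to 4.18), from 35 UMIs after splenectomy and 4 UMIs after sham surgery, and Shmt2 at 1.90 (0.16 to 4.29), from 21 UMIs and 3 UMIs. Mthfd2 there was at 0.31 (-0.20 to 0.84) and Mthfd1 near 0, with an interval from -1.33 to 1.44.

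Whether cells with Aldh1l1 also held more of the other members could be read only roughly. Among sham monocytes thinned to 4000 UMIs, Mthfd2 was found in 10 of 101 cells with an Aldh1l1 UMI (9.90%, 4.85 to 17.5) and in 109 of 1209 cells without one (9.02%, 7.46 to 10.8). Mthfd1 was found in 1.98% (0.241 to 6.97) of the cells with and 2.65% (1.82 to 3.72) of the cells without. Shmt2 gave 1.98% (0.241 to 6.97) and 1.90% (1.21 to 2.84). Splenectomy monocytes had 10 thinned cells with Aldh1l1 and splenectomy macrophages 8, too few for such shares. Without thinning, the 36 splenectomy macrophages with Aldh1l1 had higher levels than the 661 without it of Mthfd2 (37.1 CPM from 29 UMIs, against 27.0 CPM), Shmt2 (19.2 CPM from 15 UMIs, against 13.7 CPM), Shmt1 (7.67 CPM from 6 UMIs, against 3.81 CPM) and Mthfd1 (14.1 CPM from 11 UMIs, against 12.1 CPM), and a lower level of Mthfd1l (6.39 CPM from 5 UMIs, against 9.24 CPM). In sham macrophages Mthfd2 went the other way, at 17.8 CPM in the 167 cells with Aldh1l1 and 25.8 CPM in the 720 without it. No member was higher in the cells with Aldh1l1 in both classes of both libraries. Across the 12 sums of 6 classes by 2 libraries, the Pearson correlation of log2(CPM + 1) with Aldh1l1 was -0.64 for Mthfd1, -0.03 for Mthfd2, -0.11 for Mthfd1l, -0.18 for Shmt2 and 0.13 for Shmt1. In 6 of the 12 sums, those of B, T and endothelial cells, Aldh1l1 had only 1 to 3 UMIs, and 4 others are the monocyte and macrophage values by which the set was chosen, so these correlations support nothing about a shared pattern. The genes most like Aldh1l1 by that measure were B2m (0.77), the invariant chain of major histocompatibility class I, Irf7 (0.70), an interferon-induced transcription factor, Mgat5 (0.67), Tmsb4x (0.67) and Psmb9 (0.66), an interferon-induced proteasome subunit. These sums share libraries and differ in depth, and the correlations are given as a description. Irf7 had 138 CPM in splenectomy monocytes and 332 CPM in sham monocytes, and B2m 1241 CPM and 2083 CPM.

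Other folate enzymes of the cytosol and nucleus were measured in 9 of 11 cases in monocytes and 10 of 11 in macrophages. Of these 0 were 2-fold apart, beside 1.77% of all genes in monocytes and 1.68% in macrophages. At such shares a list this short is likely to hold 0 genes that far apart. The highest of the list were Fpgs, which adds glutamates to folate, in monocytes at 0.31 (-0.17 to 0.79) and Atic, of late purine synthesis, in macrophages at 0.36 (0.21 to 0.52). The median of the list was 0.0014 in monocytes and -0.097 in macrophages, beside -0.0014 and -0.0055 over all genes. In neutrophils 2 of 11 were measured and neither was 1.5-fold apart, beside 3.31% of all genes higher and 7.04% lower by that much.

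Other mitochondrial folate enzymes were measured in 4 of 9 cases in monocytes, 4 in macrophages and 2 in neutrophils. None was 1.5-fold apart in any of these. Mthfd2l, a close relative of Mthfd2, was highest in the first pair of classes, at 0.31 (-0.02 to 0.66) in monocytes and 0.44 (0.08 to 0.80) in macrophages. The lowest were Gcsh, the carrier protein of the glycine cleavage system, at -0.06 (-0.15 to 0.03) in monocytes and Mtfmt, which formylates mitochondrial initiator tRNA, at -0.14 (-0.68 to 0.40) in macrophages. List medians were 0.14 in monocytes and 0.025 in macrophages. Aldh1l2, the mitochondrial homologue of Aldh1l1, did not reach 50 UMIs in either library of these classes.

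Of the folate carriers and receptors 4 of 6 were measured in monocytes, 4 in macrophages and 1 in neutrophils. None was 2-fold apart, beside 1.77%, 1.68% and 2.14% of all genes. In monocytes Slc19a1, the reduced folate carrier, was 1.5-fold higher (0.59, 0.11 to 1.08), beside 2.37% of all genes, and Folr2, a folate receptor of resident macrophages, was 1.5-fold lower, beside 3.72% of all genes (78 UMIs after splenectomy and 137 UMIs after sham surgery, -0.90, -1.32 to -0.49). In macrophages Slc19a1 was at 0.34 (-0.22 to 0.91) and the lowest was Slc25a38, a mitochondrial glycine carrier, at -0.33 (-0.80 to 0.14). Medians were 0.050 in monocytes and 0.052 in macrophages.

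Genes of serine synthesis and uptake, of the methionine cycle and of purine synthesis were likewise not 2-fold apart in monocytes or macrophages. Of all genes 1.77% and 1.68% were, so lists this short are likely to hold 0 such genes. Of serine genes 3 of 5 were measured, with Slc1a5, a neutral amino acid carrier, highest at 0.46 (0.32 to 0.61) in monocytes and 0.57 (0.34 to 0.81) in macrophages. Psph, the last enzyme of serine synthesis, was lowest at -0.26 (-0.63 to 0.11) in monocytes and -0.17 (-0.65 to 0.29) in macrophages. List medians were -0.033 and 0.48. Of methionine cycle genes 8 of 10 were measured, with medians of 0.094 and 0.069. The extremes were Srm, spermidine synthase (0.36, 0.22 to 0.51), and Mtap (-0.18, -0.45 to 0.09) in monocytes, and Ahcy, which hydrolyses adenosylhomocysteine (0.79, 0.17 to 1.42), and Ahcyl2 (-0.16, -0.38 to 0.06) in macrophages. Ahcy was the only one 1.5-fold higher, beside 2.67% of all genes in macrophages. Of purine synthesis genes 12 of 13 were measured, with medians of 0.13 and 0.25. In either class 0 were 1.5-fold lower, beside 3.72% and 2.58% of all genes. Impdh1, of guanine nucleotide synthesis, was 1.5-fold higher in monocytes (0.61, 0.36 to 0.88), beside 2.37% of all genes, and Prps2 was lowest (-0.35, -0.76 to 0.05). In macrophages the range ran from Paics at 0.06 (-0.12 to 0.24) to Prps1 at 0.56 (0.21 to 0.91). In neutrophils 1 serine gene (Slc1a5, 0.62), 5 methionine cycle genes and 4 purine genes were measured. Slc1a5 was 1.5-fold higher there, beside 3.31% of all genes, and Ahcyl1 1.5-fold lower (-0.72, -1.17 to -0.29), beside 7.04%. Of these neutrophil genes 0 were 2-fold apart, beside 2.14% of all genes.

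The aldehyde dehydrogenase family, to which Aldh1l1 belongs by its sequence, had 10 of 18 genes measured in monocytes and 10 in macrophages. In monocytes Aldh1l1 was the only one 1.5-fold or more apart, beside 3.72% of all genes lower and 2.37% higher. The highest was Aldh3a2, a fatty aldehyde dehydrogenase, at 0.02 (-0.27 to 0.30). In macrophages a further gene was 2-fold lower, beside 0.593% of all genes. This was Aldh1a3, an enzyme of retinoic acid synthesis, with 18 UMIs at 1.80 CPM after splenectomy and 98 UMIs at 8.02 CPM after sham surgery, a log2 ratio of -2.15 (-2.97 to -1.42). The highest there was Aldh18a1 at 0.31 (-0.17 to 0.79). Medians were -0.14 and -0.18. In neutrophils 5 of 18 were measured, and Aldh1l1 was the only one 1.5-fold apart, beside 7.04% of all genes lower and 3.31% higher.

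Targets of ATF4, a stress-induced factor known to drive Mthfd2 and serine synthesis, had 13 of 16 measured in monocytes and 12 of 16 in macrophages. Of these 0 were 2-fold apart, beside 1.77% and 1.68% of all genes. In monocytes 3 were 1.5-fold higher, beside 2.37% of all genes, and the extremes were Asns, asparagine synthetase (0.97, 0.42 to 1.53), and Ddit3 (-0.45, -0.64 to -0.26). In macrophages they were Atf5 (0.59, 0.21 to 0.96) and Sesn2 (-0.70, -1.16 to -0.25), and 1 gene was 1.5-fold higher, beside 2.67% of all genes, and 1 was 1.5-fold lower, beside 2.58%. In neutrophils 12 of 16 were measured and 1 was 2-fold higher, beside 0.855% of all genes. This was Slc7a5, an amino acid carrier, with 51 UMIs after splenectomy and 27 UMIs after sham surgery, at 1.27 (0.57 to 2.0). It is named because it was the 1 gene called, after its value was seen. The list medians in monocytes and macrophages, 0.026 and 0.024, were close to those of all genes. Of cell division genes in monocytes 4 of 13 were 2-fold lower (beside 1.13% of all genes) and 1 was 2-fold higher (beside 0.639%), from Birc5 at -4.17 (-6.50 to -2.54) to Ccnb1 at 1.09 (0.36 to 1.87), with a median of -0.39. In macrophages 5 of 14 were 2-fold higher (beside 1.08% of all genes) and 0 lower, from Pcna at 0.03 (-0.08 to 0.13) to Ube2c at 2.57 (2.05 to 3.13), with a median of 0.73. The cluster led by Ube2c, Birc5 and Nusap1 held 10 splenectomy and 6 sham cells of the macrophage class. Of the monocyte class it held 0 splenectomy cells and 2 sham cells. How far so few cells set the ratios of the cell division genes was not tested. In neutrophils 2 of the 16 were measured and 0 were 2-fold apart, beside 2.14% of all genes.

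Genes next to Aldh1l1 on chromosome 6 did not show its difference. Over all kept cells the log2 ratios of the 3 nearest measured genes before it were 0.09 for Zxdc, 0.40 for Txnrd3 and -0.15 for Chchd6, with intervals that included 0. After it, Slc41a3, a magnesium transporter gene that starts 4522 bases from its end, was at -0.36 (-0.58 to -0.15), with 303 UMIs after splenectomy and 429 UMIs after sham surgery. Iqsec1 was at 0.06 and Nup210 at -0.08, both with intervals that included 0. Annotated RNAs inside the Aldh1l1 span that are among the features, Gm45901 and Gm15756, had 0 UMIs in both libraries.

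Of 5645 genes with 50 UMIs in monocytes, macrophages and neutrophils, Aldh1l1 was the only one at least 4-fold lower in all 3 classes. Alone, each class had 0.143%, 0.0798% and 0.0822% of its genes that much lower. The macrophage log2 ratio of Aldh1l1, -2.02, lay just past the 4-fold limit. It was -1.99 where the class score had to be 2 times the next, and -1.90 with no such margin, both short of 4-fold. The monocyte and macrophage values are also those by which the set was chosen. At 2-fold, 8 genes were lower in all 3 classes: Aldh1l1, AW112010, Ifi206, Ifi213, Irf7, Ly6i, Slfn5 and Usp18, several of which are induced by interferon. These were named for meeting the rule in all 3 classes, after their values were seen. Of a list of 20 genes induced by interferon, 18 in monocytes and 18 in macrophages were 1.5-fold lower or more, beside 3.72% and 2.58% of all genes. Of the list, 9 and 13 were 2-fold lower, beside 1.13% and 0.593% of all genes. In neutrophils 18 of 19 measured were 1.5-fold lower, beside 7.04% of all genes, and 9 were 2-fold lower, beside 1.28%. List medians were -0.93, -1.21 and -0.99. The lowest in monocytes and macrophages was Ifi44, at -1.48 (-1.74 to -1.23) and -2.06 (-2.91 to -1.30), and the highest were Ifit1 at -0.41 (-0.59 to -0.22) and Isg15, a ubiquitin-like protein, at -0.50 (-0.60 to -0.40). Aldh1l1 lay below every gene of that list in monocytes, and in macrophages below all but Ifi44.

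Within the splenectomy library, the Aldh1l1 level was highest in cells with few interferon-list UMIs. The cells of each class were divided into 3 bins by the UMIs of the 20 genes after thinning, with the same limits for both libraries. The libraries filled these bins unequally. Of monocytes, the lowest bin (0 to 2 UMIs) held 714 splenectomy and 202 sham cells. The middle bin (3 to 7) held 402 and 535, and the highest (8 or more) 275 and 573. The lowest bin held 379 splenectomy and 259 sham macrophages, and 789 and 614 neutrophils. In splenectomy monocytes Aldh1l1 was at 4.84 CPM (3.61 to 6.34) in the lowest bin, 2.78 CPM (1.59 to 4.52) in the middle and 0.558 CPM (0.0676 to 2.02) in the highest, from 52, 16 and 2 UMIs. In sham monocytes it was at 19.8 CPM (15.3 to 25.3), 18.9 CPM (16.0 to 22.2) and 19.9 CPM (16.8 to 23.3). The lowest and highest bins of splenectomy monocytes had intervals that did not overlap, while the 3 sham intervals did. Splenectomy macrophages gave 4.93, 2.83 and 1.42 CPM and sham macrophages 15.4, 17.2 and 15.2 CPM. Splenectomy neutrophils gave 3.03, 0.639 and 0 CPM and sham neutrophils 16.5, 19.6 and 16.7 CPM. The splenectomy order was the same in these classes, but with 2 or fewer UMIs in the highest bin, and the intervals of the bins overlapped in macrophages and in neutrophils. Aldh1l1 was lower after splenectomy in each bin of each class, and in monocytes the log2 ratio was -2.04 (-2.59 to -1.49) in the lowest bin.

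**Figure D4:**
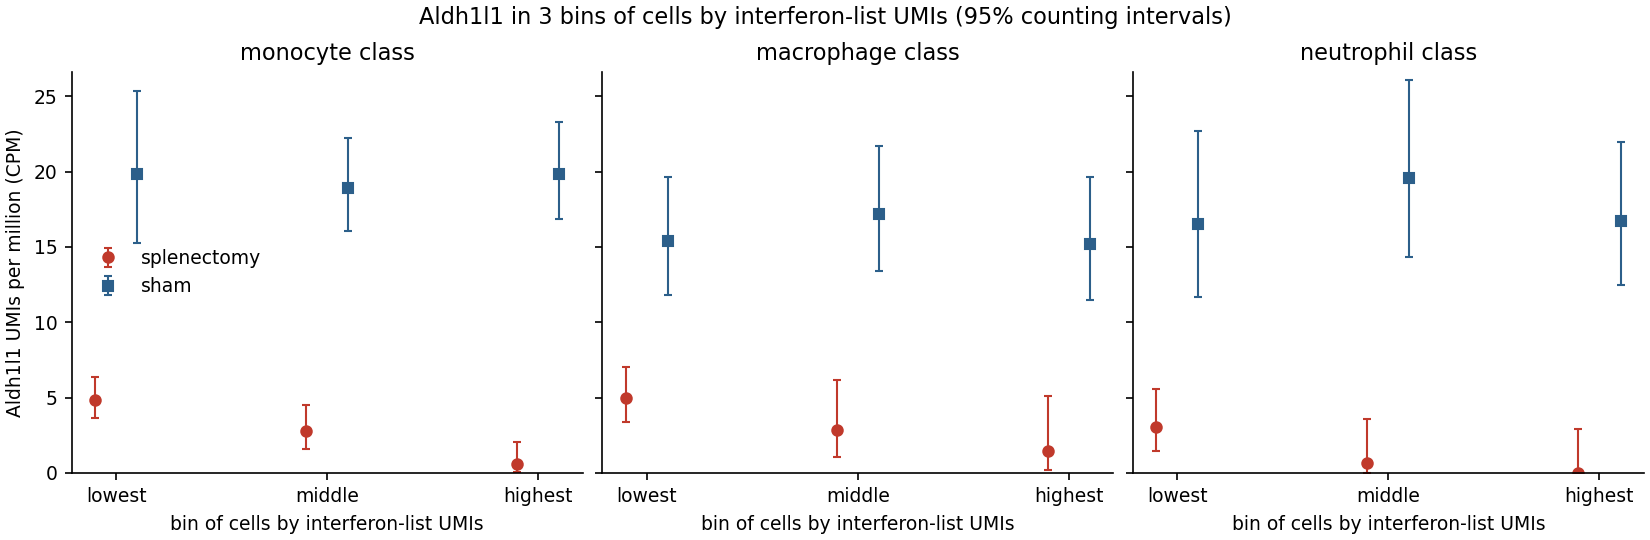
Aldh1l1 in CPM in 3 bins of cells by their UMIs of 20 interferon-induced genes, with the splenectomy library as red circles left of the sham library as blue squares and exact 95% counting intervals. In splenectomy monocytes the level is 4.84, 2.78 and 0.558 CPM from the lowest to the highest bin, and in sham monocytes 19.8, 18.9 and 19.9 CPM.

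The same association can be read in reverse from the same classes, which makes it no second result. The 64 splenectomy monocytes with an Aldh1l1 UMI had 517 CPM of the interferon list, against 1214 CPM in the 1417 without one, at median depths of 15282.5 and 12959 UMIs. All 20 genes were lower in the cells with Aldh1l1, 18 of them by at least 1.5-fold. Ifit3, named outside the rule for named genes, had 1 UMI in the cells with Aldh1l1 (0.946 CPM, 0.0239 to 5.27). It had 415 UMIs in those without (21.6 CPM, 19.6 to 23.8). Those 415 UMIs lay in 98 of the 1417 cells (6.92%), and 1 of the 64 cells with Aldh1l1 (1.56%) held Ifit3. The Ifit3 gap therefore rests on few cells, and its intervals do not cover the spread of UMIs over cells. In sham monocytes the list was at 1975 CPM in the 309 cells with Aldh1l1 and 2111 CPM in the 1109 without, and 0 of 20 genes differed by 1.5-fold. In macrophages it was at 364 CPM with and 769 CPM without Aldh1l1 after splenectomy (16 genes 1.5-fold lower), and at 1300 CPM and 1444 CPM after sham surgery (2 genes). Inside single clusters the gap varied. In the cluster led by Fcgr1, Ms4a4c and Nt5dc2 the list was at 395 CPM in 20 splenectomy cells with Aldh1l1 and 1496 CPM in 395 without, and at 2343 CPM and 2241 CPM in sham cells. It was at 292 CPM with and 777 CPM without Aldh1l1 in splenectomy cells led by Il6, Ccl24 and Serpinb2, against 1156 CPM and 1306 CPM in sham cells of that cluster. In the cluster led by Dmkn, Mgst1 and Nrg1 it was at 730 CPM with and 1197 CPM without Aldh1l1 in splenectomy cells, and at 2587 CPM and 2312 CPM in sham cells. The 36 splenectomy macrophages with Aldh1l1 had more of the cell division list too, at 1225 CPM against 325 CPM in those without. Their median depths were 20540 and 13160 UMIs. How the 958 list UMIs were spread over the 36 cells was not tested. Sham macrophages had 375 CPM and 274 CPM, at median depths of 15561 and 12079.5 UMIs. In monocytes that list was at 114 CPM with and 145 CPM without Aldh1l1 after splenectomy, and at 254 CPM and 157 CPM after sham surgery. This split of cells by Aldh1l1 was chosen after the values were seen, its cells are not replicates, and what accounts for it was not tested. If several animals were pooled in a library, its Aldh1l1 level is a mean over them, and differences between those animals cannot be told apart from differences between cells.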

How the data were processed

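UMI counts per gene and cell barcode were taken as deposited by the authors. Per the submitters' processing notes and the file headers they come from Cell Ranger 5.0.0 and mm10, and their annotation was not given in the sources used here. The members, gene lists and rules were chosen with earlier results of these data known.

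Cells with at least 200 genes and at most 20% mitochondrial UMIs were kept, and doublets were taken as the highest Scrublet scores (scanpy 1.11.5), 8 per 1000 cells for each 1000 cells in the library, which removed 200 splenectomy cells (3.996%) and 302 sham cells (4.92%). A cell took the class with the highest mean marker score if at least 3 markers were detected and the score was 1.3 times the next. In the monocyte class 183 splenectomy and 208 sham cells lay near that limit, and in the macrophage class 143 and 206. Of unassigned cells, 471 splenectomy and 577 sham cells scored highest as monocyte or macrophage.

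UMIs were summed by class and library. Ratios carry exact conditional intervals, with counts of 0 set to 3. No ratio is given where both libraries had 3 UMIs or fewer. Named genes are the members, the highest and lowest of each list with 50 UMIs, the 5 genes most like Aldh1l1 and the 3 measured neighbours on each side. A result that this rule would name in 1 list is not reported here. Clusters are Leiden clusters at resolution 1.0 on 2000 variable genes without the listed genes. The ratio step was tested on simulated data. Gene positions are from GENCODE vM21 and promoters from RefSeq, which held all 6 members.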

Additional observations from a re-analysis of the deposited data

How the results depend on the processing

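Aldh1l1 was lower after splenectomy under every alternative run: the log2 ratio lay between -3.48 and -2.17 in monocytes over 11 alternatives, between -2.40 and -1.90 in macrophages over 10, and between -3.18 and -2.83 in neutrophils over 10, the last set chosen after seeing the data. It moved beyond its counting interval once, to -3.48 in monocytes with each cell thinned to 4000 UMIs, a single random draw, and the cause was not tested. Without the monocyte-class cells of the clusters led by nonclassical monocyte and dendritic cell genes, also chosen after seeing the data, it was -2.18. Thinning to 2000 UMIs gave 4.69% of sham monocytes and 3.52% of sham macrophages with Aldh1l1, as fewer UMIs are drawn. With a minimum of 20 UMIs, 2 members were 2-fold apart in macrophages, Shmt1 being added as higher. Shmt2 in macrophages changed direction past its main interval (0.02 to 0.73), to -0.01 (-0.75 to 0.72) with each cell thinned to 4000 UMIs. The 4 other measured members were above 0 in 81 of 84 alternatives, from -0.11 to 1.14. Thinned to 4000 UMIs, macrophages gave 1.14 for Mthfd1l and -0.01 for Shmt2.

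No paired analysis was possible because each group has 1 library. Differences between animals and between library preparations cannot be told apart from splenectomy, intervals cover counting error only, and members under 50 UMIs (Shmt1, and 4 members in neutrophils) were left out of the counts, with wide intervals. The interval of Shmt1 in macrophages lay above 0 under the main setting and, with each cell thinned, reached from -0.11 to 2.38. That of Mthfd1 in neutrophils lay above 0 with CPM without the top genes (0.01 to 0.92) and with thinning (0.04 to 1.29). Free RNA was not removed.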
